A study of Homo sapiens with 4 samples.

Results

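The genes described here were the D cyclins CCND1, CCND2 and CCND3 and the G cyclins CCNG1 and CCNG2. With the Cip/Kip inhibitors CDKN1B and CDKN1C and the INK4 inhibitors CDKN2B, CDKN2C and CDKN2D, they make 10 cell cycle regulators. They were taken from the whole-genome array by the gene symbol printed for a probe or by the RefSeq transcript the probe was designed to, which gave 18 of its 50238 probes and 10 of its 31379 gene or transcript names. Expression was measured in A549 cells, a human lung adenocarcinoma line. The cells were either without embelin (control, 2 arrays) or exposed to embelin (15 µM for 4h, 2 arrays). Embelin is a benzoquinone from the fruit of Embelia ribes. Both groups had been moved to medium with less serum ahead of the treatment. The labels give the control a dose of 0 µM embelin without naming a vehicle. The comparison asked which of these regulators differed in transcript level after embelin.

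The D cyclins bind and activate CDK4 and CDK6, which phosphorylate the retinoblastoma protein and so release E2F factors to transcribe the genes of S phase. INK4 proteins (p15, p18 and p19, from CDKN2B, CDKN2C and CDKN2D) bind CDK4 and CDK6 themselves, whereas the Cip/Kip proteins p27 (CDKN1B) and p57 (CDKN1C) bind complexes of cyclins with CDK2. The G cyclins are unconventional: cyclin G1 is a transcriptional target of p53, and cyclin G2 is a target of FOXO factors that is associated with arrest of the cell cycle. The array measures transcript only, while several of these proteins, p27 and the D cyclins above all, are also controlled by degradation.

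Each probe is a single oligonucleotide and each was read from a single spot of the array. The sequences of the probes that carry the results below are given from the deposited scanner data, 5′ to 3′, so that the part of the transcript measured can be located. For CCNG2 and CDKN1B the brighter probe comes first. Of this probe and that of CDKN2C only the first 30 bases are printed, and for CCND1 the second brightest probe is shown.
CCNG2 GT_44k_23_P110122, first 30 bases: aggcagaaataattaggctagggctcttag
CCNG2 GT_44k_24_P80532: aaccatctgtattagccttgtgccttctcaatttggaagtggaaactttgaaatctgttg
CDKN1B GT_44k_24_P81841, first 30 bases: agcacacttgtaggataagtgaaatggata
CDKN1B GT_44k_23_P204696: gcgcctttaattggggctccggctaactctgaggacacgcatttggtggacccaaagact
CDKN2C GT_44k_23_P85460, first 30 bases: ttggcttttcccttgcttccccttttgcca
CCND1 GT_44k_24_P193011: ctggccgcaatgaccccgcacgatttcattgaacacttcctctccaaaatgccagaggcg

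The 4 arrays lay on 1 slide, the controls at positions 4 and 1 and the embelin arrays at positions 2 and 3. The embelin arrays thus held the middle of these positions and the controls the outer ones. A difference between middle and outer positions cannot be told apart from one due to embelin, and position as a linear covariate does not separate them. Values are log2 signals after the arrays were brought to one 75th percentile, which stood at 601 to 739 before scaling. The share of probes well above background, as the scanner software marks it, was 66.7% and 66.4% on control 1 and embelin 2 but 50.3% and 51.2% on control 2 and embelin 1, so each group held 1 array of each kind, and these pairs were also neighbours on the slide. Correlation over probes was 0.972 between the controls, 0.971 between the embelin arrays and 0.924 to 0.966 between groups. The keratins KRT7, KRT8, KRT18 and KRT19, which mark epithelial cells, were well above background on all arrays at their brightest probes. Log2 fold changes at these ran from -0.56 to 0.05, and no kept keratin probe was called. The dimmer KRT8 probe gave -0.71 (limma adjusted p = 0.368), and 1 KRT18 probe was not kept. The leukocyte gene PTPRC and the endothelial genes PECAM1 and CDH5 had no probe above background on both arrays of a group, and 1 probe of the T cell gene CD3E was kept, at 5.39 and 4.85 in control and 7.01 and 5.74 after embelin (limma adjusted p = 0.308). The labels do not say whether the 2 arrays of a group came from separate cultures, so p-values measure only the spread between these samples, which may be technical.

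Of the 18 probes, 13 from 8 genes cleared background on both arrays of one group or the other and entered the test, and all 13 were in fact above background on all 4 arrays. CCND2 and CDKN2B had no probe in the test. With limma and Benjamini-Hochberg adjustment over all probes at a threshold of 0.05, 1 of the 13 was higher after embelin (CCNG2) and 0 were lower. Over the whole array 282 of 26145 probes passed (1.08%), 217 higher (0.83%) and 65 lower (0.249%). At an unadjusted p under 0.05 with at least a 2-fold change, 2 of the 13 were higher (both CCNG2) and 1 lower (CDKN2C), against 8.36% of all probes, 4.58% higher and 3.78% lower. The 2 embelin arrays lay above both controls at 5 of the 13 and below both at 6, against 21.4% and 28.3% of all probes with a value on every array (49.7% together). The 13 probes are not 13 independent measurements, since 4 of the 8 genes had more than 1. The median log2 fold change of the 13 was -0.36, and of the brightest probe of each of the 8 genes -0.16, beside -0.04 for all kept probes.

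**Figure D1:**
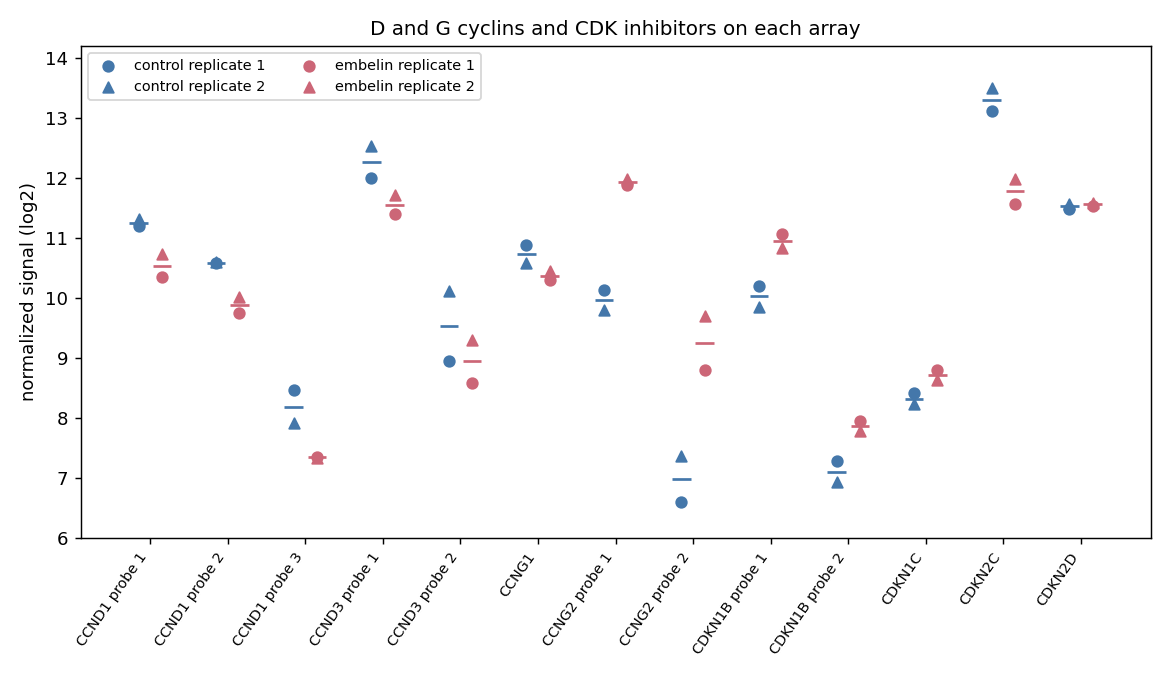
Log2 normalized signal (vertical axis) of each tested probe on the 2 control and the 2 embelin arrays, with short bars at the group means. The embelin arrays lie above both controls for CCNG2, CDKN1B and CDKN1C, below both for CCND1, CCNG1, CDKN2C and the brighter CCND3 probe, and overlap the controls for the other CCND3 probe and CDKN2D.

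Cyclin D1 (CCND1), the D cyclin induced by growth factor signalling through MEK and ERK, was read by 3 probes, and all 3 gave lower values after embelin without passing the test. At its brightest probe the log2 signal was 11.19 and 11.31 in control and 10.34 and 10.73 after embelin. The groups did not overlap, and the log2 fold change was -0.72 (SE 0.22, limma adjusted p = 0.215). The second probe read 10.57 and 10.59 in control against 9.75 and 10.01 after embelin, a log2 fold change of -0.70 (SE 0.19, limma adjusted p = 0.184). The third read 8.46 and 7.91 against 7.34 and 7.34, a log2 fold change of -0.85 (SE 0.25, limma adjusted p = 0.208). The probes thus differed from each other by less than their errors, and each 95% interval lay below 0 before adjustment, the widest from -1.53 to -0.16.

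Cyclin D3 (CCND3), the partner of CDK6 in many cell types, was read by 2 probes that were less even. The brighter one gave 12 and 12.53 in control and 11.39 and 11.71 after embelin. Both embelin values were below both controls, with a log2 fold change of -0.71 (SE 0.27, limma adjusted p = 0.288). The dimmer one gave 8.95 and 10.11 in control and 8.58 and 9.30 after embelin, so that the groups overlapped. Its log2 fold change was -0.58 with a 95% interval from -1.93 to 0.76 (limma adjusted p = 0.609), and it was -1.17 without control 1 and -0.0015 without control 2. Within the neighbouring arrays it was 0.36 for embelin 2 against control 1 and -1.53 for embelin 1 against control 2.

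Cyclin D2 (CCND2) could not be compared. Its 3 probes were well above background on 1 of the 4 arrays each at most, and on different arrays: 1 probe on control 2 only, where it read 6.44 against 2.05 to 3.88 elsewhere, and another on embelin 1 only, where it read 6.78 against 1.67 to 3.65. The last was at background throughout. Across the D cyclins 5 of 8 probes were tested, all 5 with negative log2 fold changes from -0.85 to -0.58 and a median of -0.71, 4 of them below both controls (28.3% of all probes) and 0 called, but these 5 probes come from only 2 genes. The RNA was extracted in bulk, so fewer cells in a phase of the cycle and less transcript per cell cannot be told apart here or for the genes that follow.

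The G cyclins went apart. Cyclin G2 (CCNG2) rose 3.93-fold and was the one member called, while the value of cyclin G1 was lower without passing. At the brighter CCNG2 probe the log2 signal was 10.12 and 9.79 in control and 11.88 and 11.98 after embelin, that is 9.96 ± 0.24 against 11.93 ± 0.07 (SD, n = 2). The distance between the groups was several times the spread within either, with a log2 fold change of 1.98 (SE 0.21) and a limma adjusted p of 0.048. The 95% interval of the log2 fold change was 1.41 to 2.54. The call was close to the threshold, with a limma adjusted p from 0.00345 to 0.58 over the alternative settings. With left-out arrays included, the log2 fold change ran from 1.81 to 2.14, though several of these settings leave it as it was by design. Without control 1 it was 2.14 (limma adjusted p = 0.0803), without control 2 it was 1.81 (0.208), without embelin 1 it was 2.03 (0.25) and without embelin 2 it was 1.92 (0.138).

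The second CCNG2 probe, at another stretch of the transcript, read 6.60 and 7.35 in control and 8.80 and 9.70 after embelin. Both embelin arrays were again above both controls. Its log2 fold change of 2.27 had a larger error than the first (SE 0.44 against 0.21) and a limma adjusted p of 0.107. Within neighbouring arrays the brighter probe gave 1.86 and 2.09 and the dimmer one 3.1 and 1.44. Positive values in both pairs follow from the lack of overlap and are no further result.

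Cyclin G1 (CCNG1) was read by 1 probe, at 10.87 and 10.58 in control and 10.29 and 10.45 after embelin. The embelin arrays were the lower, but by a log2 fold change of only -0.36 (SE 0.21, limma adjusted p = 0.45), and the 95% interval from -0.91 to 0.20 included 0. Neighbouring arrays gave -0.43 and -0.29. No test of the difference between CCNG1 and CCNG2 was run.

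**Figure D2:**
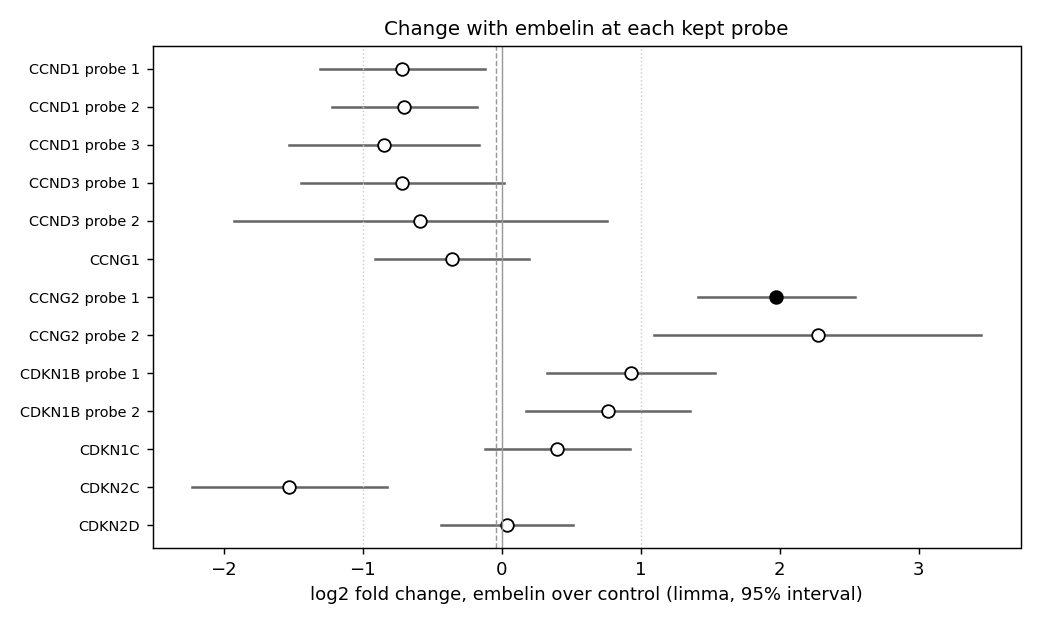
Log2 fold change of embelin over control for each tested probe, with its 95% limma interval before adjustment. The filled point is the CCNG2 probe called after adjustment over all probes, the dashed line is the median of all kept probes (-0.04), and the dotted lines mark a 2-fold change.

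The Cip/Kip inhibitors among the members, CDKN1B and CDKN1C, were higher after embelin at every probe, but none was called. For CDKN1B, which encodes p27, the brighter probe read 10.20 and 9.84 in control and 11.06 and 10.84 after embelin. The groups did not overlap, and the log2 fold change was 0.93 (SE 0.22, limma adjusted p = 0.152), just under the 2-fold line. The dimmer probe read 7.28 and 6.92 in control and 7.95 and 7.77 after embelin, a log2 fold change of 0.76 (SE 0.22, limma adjusted p = 0.195). The 2 CDKN1B probes differed by less than their errors. Their 95% intervals before adjustment ran from 0.32 to 1.53 and from 0.17 to 1.35.

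CDKN1C, which encodes p57 and is imprinted, read 8.41 and 8.22 in control and 8.80 and 8.62 after embelin. The difference was in the same direction and smaller, with a log2 fold change of 0.40 (SE 0.19, limma adjusted p = 0.381) and an interval from -0.12 to 0.92. Over the 3 probes of both genes the median log2 fold change was 0.76, and the embelin arrays lay above both controls at each of them, as at 21.4% of all probes.

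Among the INK4 inhibitors the values went in different directions. CDKN2C, which encodes p18 and is itself transcribed by E2F factors, had the largest negative value of the members, at 13.11 and 13.50 in control and 11.57 and 11.99 after embelin. Group means were 13.30 ± 0.27 and 11.78 ± 0.30 (SD, n = 2), a signal 2.88-fold lower after embelin. The log2 fold change was -1.53 (SE 0.26, 95% interval -2.23 to -0.83), but limma's adjusted p was 0.088. It passed the threshold in 3 of the alternative settings, with normexp background correction (limma adjusted p = 0.0447), with probes above background on all 4 arrays (0.0458) and with a trended, robust prior (0.0125). Calls over the whole array also rose in these settings, from 282 to 819, 768 and 1296. In the other alternatives CDKN2C did not pass, with a limma adjusted p as high as 0.666 with no filter on dim probes. Over the settings and left-out arrays the log2 fold change of CDKN2C ran from -1.74 to -1.32. Its groups did not overlap, so leaving out an array could not turn its sign.

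CDKN2D, which encodes p19, read 11.48 and 11.57 in control and 11.54 and 11.59 after embelin. The arrays of the groups overlapped, with a log2 fold change of 0.04 (SE 0.18, limma adjusted p = 0.941). The interval from -0.43 to 0.52 held no 2-fold change in either direction, and without control 1 the value was -0.0059. CDKN2B, which encodes p15 and is a target of TGF-β signalling, had 2 probes and neither was tested. One read 7.90 on embelin 1, where it was well above background, but 3.33 on embelin 2 and 1.57 and 3.62 on the controls. The other was at background on all 4 arrays, between 1.68 and 3.89. Probes above background on a single array were common, at 1314, 669, 1033 and 1140 of them on control 1, control 2, embelin 1 and embelin 2, and the PTPRC probe had the same pattern, with 7.57 on embelin 1 against 1.54 to 4.32 on the rest.

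**Figure D3:**
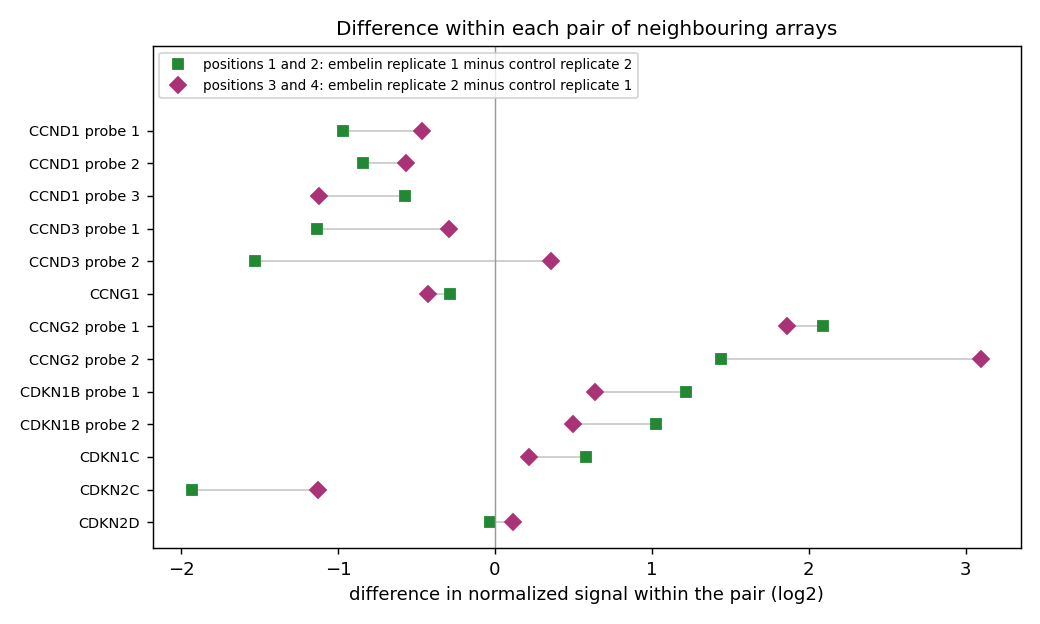
Log2 difference of embelin over control within each pair of neighbouring arrays, embelin 2 minus control 1 and embelin 1 minus control 2, for each tested probe. CCNG2, CDKN1B and CDKN1C are above 0 and CCND1, CCNG1 and CDKN2C below 0 in both pairs, while the dimmer CCND3 probe (0.36 and -1.53) and CDKN2D (0.11 and -0.03) change sign. Where the groups do not overlap, both pairs must have the same sign.

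Within pairs of neighbouring arrays, which shared a like background, 11 of the 13 probes kept their sign. These are the probes at which the groups did not overlap, where any pairing must give the same sign, so this is no separate result. CDKN1B at its brighter probe gave 0.64 on one side and 1.22 on the other. CCND1 at its brightest probe gave -0.47 and -0.97, and CDKN2C gave -1.12 and -1.93. For these 3 probes the difference was the larger in the pair of embelin 1 and control 2, the 2 arrays with fewer probes above background. The reverse held for the dimmer CCNG2 probe (1.44 in that pair, 3.1 in the other), the third CCND1 probe (-0.57 and -1.12) and CCNG1 (-0.29 and -0.43). The remaining probes without overlap had the larger difference in the pair of embelin 1 and control 2.

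The promoters of 7 of the 10 genes were found in the RefSeq table used here, in 12 windows of 300 bases that span a start site on GRCh38.p14. That of CCNG2 (chr4:77156957-77157256, plus strand) is shown because CCNG2 was the member called, with the E-box CACGTG in capitals.
CCNG2 promoter: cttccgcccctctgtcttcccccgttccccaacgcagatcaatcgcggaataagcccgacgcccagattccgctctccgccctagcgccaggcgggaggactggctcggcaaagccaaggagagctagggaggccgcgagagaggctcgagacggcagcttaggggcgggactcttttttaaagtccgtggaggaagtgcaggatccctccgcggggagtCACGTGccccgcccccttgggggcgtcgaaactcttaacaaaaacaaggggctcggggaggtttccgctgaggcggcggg

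One of the 3 windows of CDKN2C (chr1:50969995-50970294, plus strand) is shown because CDKN2C had the largest value of opposite sign. Capitals mark the HIF core, the cAMP response element and the E-box, whose letters follow the sequence.
CDKN2C promoter: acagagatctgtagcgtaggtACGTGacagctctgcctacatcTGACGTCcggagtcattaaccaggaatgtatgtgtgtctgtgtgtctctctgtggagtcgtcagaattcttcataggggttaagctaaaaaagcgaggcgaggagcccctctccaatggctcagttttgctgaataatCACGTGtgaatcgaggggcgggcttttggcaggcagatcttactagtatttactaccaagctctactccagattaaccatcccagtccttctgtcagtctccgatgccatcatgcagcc

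The letters CACGTG, searched on both strands, stood in 3 of the 12 windows, those of CCNG2 and CDKN2C only among the 7 genes, and in 7.26% of all 35116 windows. ACGTG, the core that HIF factors read and which overlaps every CACGTG, stood in 4 of the 12, from CCNG2, CDKN2C and CDKN2D, and in 21.4% of all. TGACGTC, a cAMP response element, stood in 2 of the 12, both of CDKN2C (3.45% of all). The E2F motif TTCCCGC stood in 1, another window of CDKN2C (6.55% of all). The FOXO motif GTAAACA stood in 1 window of CCND3 (3.42% of all) and not in that of CCNG2. TGACTCA (4.95%) and TTGGCGC (3.04%) stood in none. The E-box form CACGTG, the only one searched, thus occurred in windows of the gene that rose and of the gene with the most negative value. A match describes letters and not binding.

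Genes of G1 control, other cyclins and proliferation-associated genes were taken as 6 lists, 57 genes in all, each read by its brightest kept probe. Of 55 tested, 2 were called lower (CDC25A and E2F2, at 1 probe each) and 0 higher, beside 0.249% and 0.83% of all probes. Their median log2 fold change was -0.18 beside -0.04 for all kept probes, and with any 1 array left out none was called. At an unadjusted p under 0.05 and 2-fold, 2 of the 55 were higher and 8 lower, beside 4.58% and 3.78% of all probes.

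Among the G1 kinases, their activators and the E cyclins, 8 of 9 genes were tested, with a median of -0.32. CDC25A, the phosphatase that activates CDK2, fell from 9.76 and 9.79 to 7.47 and 7.78, a log2 fold change of -2.15 (SE 0.20, limma adjusted p = 0.042). Its second probe read 6.62 and 7.04 in control and 3.75 and 5.19 after embelin, was well above background on 1 of the 2 embelin arrays and did not pass (limma adjusted p = 0.14). CCNE1, the cyclin E that drives CDK2 at the start of S phase, read 13.38 and 13.70 in control and 12.01 and 12.29 after embelin, a log2 fold change of -1.39 (limma adjusted p = 0.082).

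Of the 13 pocket proteins and E2F factors, all tested with a median of -0.18, E2F2 fell at its brighter probe, from 12.17 and 12.23 to 9.70 and 10.18 (log2 fold change -2.26, limma adjusted p = 0.048). Its other probe did not follow, at 8.0 and 7.03 in control and 8.05 and 7.92 after embelin (0.47, limma adjusted p = 0.579). E2F8, a repressor among the E2F factors, read 7.76 and 7.34 in control and 3.98 and 5.21 after embelin (-2.95, limma adjusted p = 0.082) and was well above background on 1 of the 2 embelin arrays.

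The list drawn up for turnover of D cyclins and p27 held 10 genes, with a median of -0.13 and none called. SKP2, the F-box protein that marks p27 for degradation, read 8.94 and 9.19 in control and 7.21 and 7.77 after embelin, without overlap (log2 fold change -1.57, limma adjusted p = 0.09). CUL1, the scaffold of the same ligase, gave -0.34 (limma adjusted p = 0.455). Of the FOXO factors, FOXO3 read 8.19 and 8.83 in control and 9.23 and 9.84 after embelin (1.03, limma adjusted p = 0.249), with 1.17 at its other probe, and FOXO1 gave -0.34 (limma adjusted p = 0.441). FOXO4 was not kept.

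The 14 other cyclins had a median of -0.01 with 7 positive and 7 negative values and none called. The 2 lowest values were those of cyclins A and F, which act in S phase and later. CCNA2 read 10.66 and 10.94 in control and 9.17 and 9.51 after embelin (-1.46, limma adjusted p = 0.078), and CCNF gave -1.54 (limma adjusted p = 0.137) and was well above background on 1 of the 2 embelin arrays. Of 8 proliferation-associated genes none was called, 7 lay below both controls on both embelin arrays, as did 28.3% of all probes, and the median was -0.53. MKI67 gave -1.49 (limma adjusted p = 0.147) and TOP2A -0.56 (limma adjusted p = 0.351). The part that cell cycle position played in the values of the members was not tested.

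**Figure D4:**
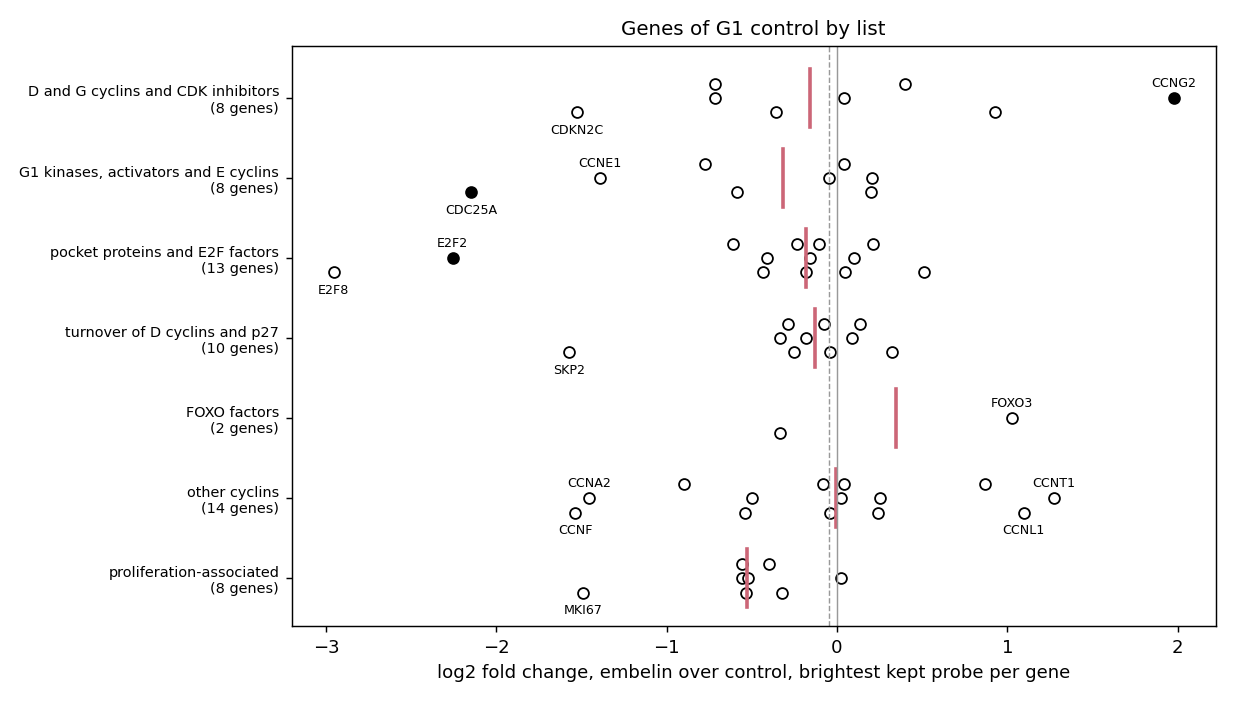
Log2 fold change of embelin over control (horizontal axis) at the brightest kept probe of each gene, for the members and the 6 lists, with a red bar at each median, a dashed line at the median of all kept probes and names beside genes at least 2-fold apart. The filled points are CCNG2, CDC25A and E2F2, which passed the adjusted threshold, and the proliferation-associated list has the lowest median (-0.53).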

How the data were processed

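Total RNA of 4 A549 samples, labelled with Cy3, was hybridized to single-colour Agilent arrays. The authors deposited spot intensities written by Agilent's software, Feature Extraction 10.7.3.1, which subtracts background and does not normalize between arrays. Their table of probe intensities was used as an alternative.

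The processed intensity of each array was scaled to a common 75th percentile, as the study's methods name, set to at least 1 and log2-transformed. Outlier spots were left out, and spots of a probe were averaged. Kept probes (26146 of 50238) were well above background on both control or both embelin arrays. No spot was saturated. Groups were compared with lmFit and eBayes of limma 3.58.1 under R 4.3.3, two-sided, with Benjamini-Hochberg adjustment over 26145 probes, since 1 kept probe could not be fitted. The number of arrays limits the precision, and an exact permutation test of 2 against 2 cannot go below 0.333.

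The members and lists were chosen with earlier results of these data known. Named were all members and markers, and from each list the genes called and the 2 with the largest change. Alternatives were quantile normalization, normexp (offset 50), the deposited table of probe intensities, other filters on dim probes, 1 probe or the mean per gene, outlier spots kept, the methods' test, a trended robust prior, blocks for replicate number and neighbouring arrays, slide position, and each array left out. Gene names came from the files and a RefSeq table (28595 probes matched by accession). The fit was tested on simulated data.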

Additional observations from a re-analysis of the deposited data

How the results depend on the processing

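After adjustment, counts depended on the setting. How far fold changes depended on it is not comparable, since several settings, such as the filters, the priors and the blocks, leave the fold change of a member probe as it was. The 282 probes called on the whole array (217 higher, 65 lower) became 160 with quantile normalization, 819 (541 higher, 278 lower) with normexp, 158 with the deposited table, 170 with outlier spots kept, 768 with probes above background on all 4 arrays and 1296 with a trended robust prior. The 1 call among the members became 2, 2 and 3, and the 2 among the other genes 6, 5 and 7, with normexp, the stricter filter and the robust prior respectively, and both were 0 with quantile normalization, the deposited table, outlier spots kept and probes averaged per gene. All 3 counts were 0 with no filter on dim probes, the methods' test, slide position as a covariate, the neighbouring arrays as a block and each array left out (0 to 0). With 1 array in a group, limma takes its spread to be that of the other group.

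At an unadjusted p under 0.05 and 2-fold, the 2185 probes became 1252 with normexp and 1385 with the methods' test, and 1999 to 3203 with an array left out. The 3 of the members became 5 without control 1 and 3 to 5 over the left-out arrays.

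With the replicate number as a block all 3 adjusted counts were 0. The deviations of same-numbered arrays correlated at 0.214, but nothing in the labels pairs them. In that fit CCNG2 had a limma adjusted p of 0.0928. Its log2 fold change of 1.98 could not differ there, since each group holds 1 array of each number. Among the brightest probes, CDKN2D turned sign, at -0.0059 without control 1 (0.0871 without control 2) and at -0.03 and 0.11 within the pairs of neighbouring arrays. Of the brightest probes, CCNG2 lost its call in 13 of the 17 alternatives with a test, and the cause was not tested. Its direction was the same in all 17, but most of them could not turn it. Filters, priors and blocks leave its fold change as it was, and its groups did not overlap when an array was left out.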
